A study of Mus musculus with 21 samples.

Results

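Estrogen receptor α (ERα) was located on the genome by ChIP-seq (sequencing of immunoprecipitated chromatin) in the liver and in 3 fat depots of CD-1 mice, and the peaks described here are those listed in the liver alone and away from gene ends. They were selected on 3 criteria: a −log10 q of at least 2 in the liver list, no overlap of even 1 bp with any peak of the 4 fat lists, and a summit over 1 kb from both ends of every protein-coding gene (mm10). Of the 21411 liver peaks on chromosomes 1 to 19 and X, 9945 reached that q value, 5914 of these lay away from gene ends, and 4463 (20.8% of the list) also met no fat peak. They are called Liver-only distal peaks below. The 21 samples of the series came from 10-week-old animals given estradiol or vehicle before they were killed, and 12 of them were ERα ChIP libraries. The liver list stood for 2 libraries after estradiol. The fat lists stood for visceral white fat (vWAT) after estradiol (4 libraries) and after vehicle (2 libraries), subcutaneous white fat (scWAT) after estradiol (3 libraries) and brown fat (BAT) after estradiol (1 library). ERα peaks in vehicle-treated liver were not analysed here, so every Liver-only distal peak was seen after estradiol and its response to the hormone was not measured.

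Each tissue and treatment had a single peak list, so no spread between libraries could be computed and no test between tissues was made. Intervals below are 95% Wilson intervals, which cover counting error over peaks, genes or DNA windows only. The read depth behind the lists is not given in the sources used here, and the fat lists held 20715 peaks (vWAT, estradiol), 7400 (vWAT, vehicle), 17971 (scWAT) and 5193 (BAT). A peak absent from a list may therefore be bound below what that list could detect. "Liver-only" refers to the lists and not to the tissues. Peak lists hold no expression values, so the purity of the liver samples could not be read from marker genes here.

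ERα is a nuclear receptor that binds DNA as a dimer once estradiol is bound, and its preferred element is an inverted repeat of the AGGTCA core. In the liver it is found mostly in hepatocytes, where estrogen is known to act on lipoprotein, bile acid, carbohydrate and growth hormone related genes. Many of its sites lie in enhancers far from promoters, which are opened by factors of the cell type such as FOXA, HNF4A and CEBP proteins in hepatocytes. Enhancers can act over long distances and past other genes, so the nearest gene to a peak is a neighbour and not an established target.

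Although these peaks were chosen away from the ends of protein-coding genes, some covered an annotated start inside a gene or of a non-coding RNA, and these were the ones whose sequence was at hand. The 300-bp RefSeq windows (GRCm38.p6, from 250 bases before to 50 after each start) held the summit of 80 of the 4463 peaks. The parts of 6 such windows that lie upstream of the start and under the peak are shown, as examples of the DNA that lay under peaks of different strength. They were chosen after their values were seen. Abr (a regulator of small GTPases) and Gm34315 (a non-coding RNA) had the strongest peaks over a window of a coding and of a non-coding gene. Of the other 4 genes, Pfkfb2 sets the level of fructose-2,6-bisphosphate in glycolysis, and Pglyrp2 is a secreted enzyme that cleaves bacterial peptidoglycan. Eci2 is an enzyme of fatty acid oxidation, and Asgr1 is a subunit of the hepatocyte asialoglycoprotein receptor. Each sequence is written 5′ to 3′ on the strand of its gene, and capitals mark exact matches on either strand to any of 8 motifs, of which 3 occur here: AGGTCA (the receptor core), then the GATA-type AGATAA, and the STAT-type TTCNNNGAA.
Abr (chr11:76494498-76494745, minus strand, peak enrichment 7.89): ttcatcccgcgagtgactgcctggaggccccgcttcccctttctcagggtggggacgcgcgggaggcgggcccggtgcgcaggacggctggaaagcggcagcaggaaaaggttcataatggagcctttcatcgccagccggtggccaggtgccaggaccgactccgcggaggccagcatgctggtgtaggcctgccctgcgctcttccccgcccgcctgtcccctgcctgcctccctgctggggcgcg
Gm34315 (chr15:10959478-10959727, minus strand, peak enrichment 7.09): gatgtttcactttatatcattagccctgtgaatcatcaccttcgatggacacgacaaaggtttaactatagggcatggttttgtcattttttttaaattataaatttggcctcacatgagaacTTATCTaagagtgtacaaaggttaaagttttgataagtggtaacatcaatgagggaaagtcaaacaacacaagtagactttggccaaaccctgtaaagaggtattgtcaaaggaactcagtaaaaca
Pfkfb2 (chr1:130715822-130716071, minus strand, peak enrichment 5.36): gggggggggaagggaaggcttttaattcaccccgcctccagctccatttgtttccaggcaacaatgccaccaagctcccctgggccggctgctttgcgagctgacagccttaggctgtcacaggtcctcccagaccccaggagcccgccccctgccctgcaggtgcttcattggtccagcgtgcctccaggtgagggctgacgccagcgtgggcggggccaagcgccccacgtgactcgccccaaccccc
Pglyrp2 (chr17:32420976-32421117, minus strand, peak enrichment 5.53): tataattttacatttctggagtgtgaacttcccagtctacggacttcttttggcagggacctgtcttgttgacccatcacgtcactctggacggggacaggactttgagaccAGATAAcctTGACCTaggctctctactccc
Eci2 (chr13:34994145-34994393, minus strand, peak enrichment 5.16): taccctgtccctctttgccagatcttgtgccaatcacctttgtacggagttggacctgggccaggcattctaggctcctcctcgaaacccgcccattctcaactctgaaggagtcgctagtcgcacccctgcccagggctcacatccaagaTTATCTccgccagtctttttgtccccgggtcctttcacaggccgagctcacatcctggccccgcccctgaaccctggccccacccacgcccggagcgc
Asgr1 (chr11:70054007-70054123, plus strand, peak enrichment 4.54): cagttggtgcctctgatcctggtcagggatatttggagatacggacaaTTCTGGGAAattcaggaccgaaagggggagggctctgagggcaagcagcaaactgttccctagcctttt
The Abr and Pfkfb2 stretches were rich in G and C (70.2% and 66.8%) and held none of the motifs searched. The Pglyrp2 stretch (48.6% G and C) held an AGGTCA and an AGATAA, Gm34315 (35.2%) and Eci2 (61.0%) each held an AGATAA, and Asgr1 (52.1%) held a STAT-type match. The summit of the Pglyrp2 peak lay 46 bp downstream of the start and so outside the stretch shown. A match describes the letters and does not show that a factor was bound there.

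The Liver-only distal peaks were mostly narrow and of modest height. Their fold enrichment, the authors' value for each peak, had a median of 4.61, with 359 peaks at 6 or more and a range from 3.78 to 12.05. The 1451 distal liver peaks that did overlap a fat peak (called shared distal peaks) had a median of 5.05, with 432 at 6 or more and a maximum of 25.7. Median widths were 304 bp and 408 bp. The deposited values were heavily tied: the 4463 peaks held only 263 distinct enrichments, and the commonest, 4.16, 4.04 and 4.14, were carried by 494, 350 and 328 peaks, which is 26.3% of the members. Width was also near its lower limit for many, with 2409 peaks (54.0%) under 310 bp. All of these measures are tied to the q value that selected the peaks, so they describe the set and support nothing about it.

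**Figure D1:**
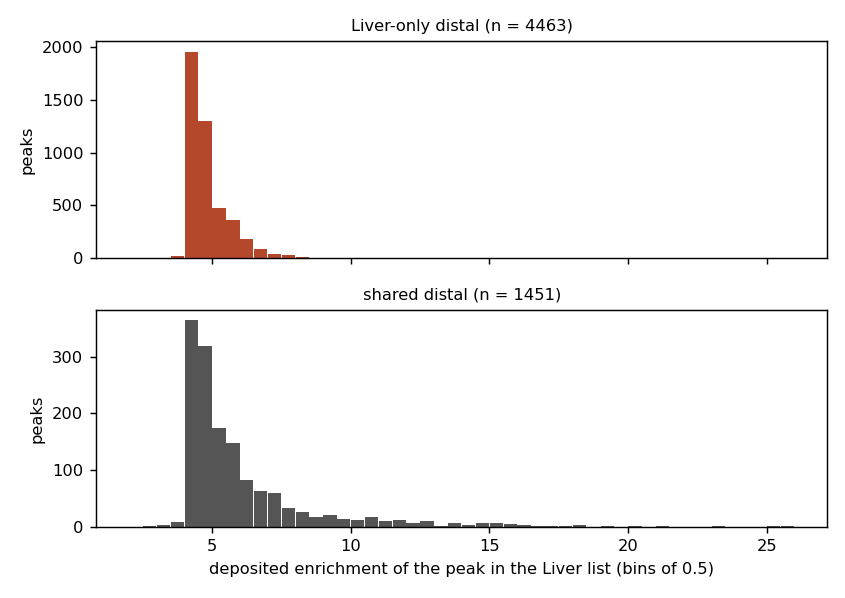
Number of peaks (vertical axes, separate scales) by deposited fold enrichment in the liver list (horizontal axis, bins of 0.5), for the 4463 Liver-only distal peaks (top) and the 1451 shared distal peaks (bottom). The Liver-only distal peaks crowd around their median of 4.61, while the shared distal peaks reach 25.7.

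At the threshold the set ran on without a gap. The 3 members with the lowest −log10 q (2.004) all had an enrichment of 3.94 and lay nearest to Cs (citrate synthase), Srsf5 (a splicing factor) and Baat (the enzyme that conjugates bile acids to amino acids). The 3 peaks just outside had −log10 q values of 1.97 and 1.96 and enrichments of 3.79 and 4.03, and lay near Ugt2b38, a glucuronidation enzyme, and inside Clu and Ctif. A further 9346 liver peaks met the overlap and distance criteria and fell below the threshold.

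The share of liver peaks that met no fat peak depended on both place and strength. Away from gene ends 75.5% (74.4 to 76.5) of the liver peaks that reached the q threshold were absent from all 4 fat lists, against 18.4% (17.2 to 19.6) of those at gene ends. Among distal peaks the Liver-only share was 82.5% (81.1 to 83.8) at −log10 q from 2 to 3, 77.8% (76.0 to 79.6) from 3 to 5, and 57.9% (54.1 to 61.6) from 5 to 10. Of the 209 distal peaks at 10 or more, only 13 were Liver-only, which is 6.22% (3.67 to 10.4). At gene ends the same 4 shares were 35.6%, 25.7%, 10.1% and 0.39%. The share thus fell from each bin to the next in both places, and in every bin it was higher away from gene ends. Overlap with a fat list defined the set, so these shares describe it.

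**Figure D2:**
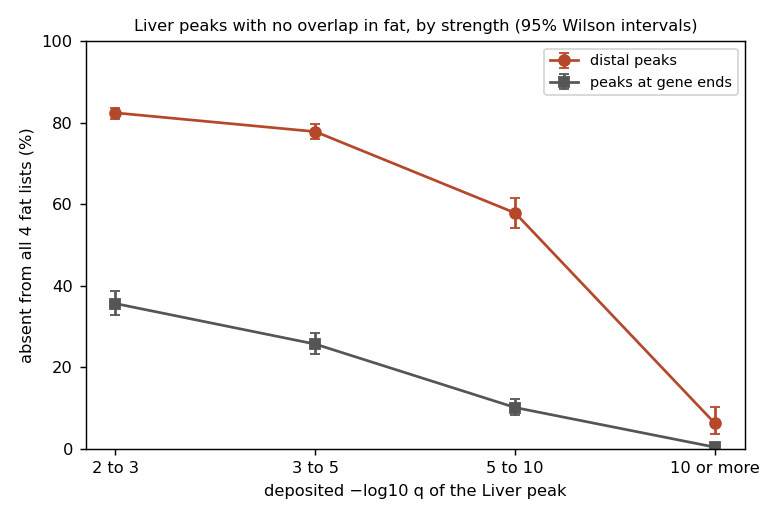
Percent of liver peaks that overlap no fat peak (vertical axis) by −log10 q of the peak (horizontal axis, 4 bins), for peaks away from and at gene ends. Bars around points are 95% Wilson intervals over peaks, and the distal share falls from 82.5% in the weakest bin to 6.22% in the strongest.

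The shared distal peaks, which form the counterpart, were found most often in vWAT after estradiol (1126 of 1451, 77.6%) and in scWAT (1057, 72.8%), and less often in vWAT after vehicle (679, 46.8%) and BAT (390, 26.9%), in the order of the lengths of those lists. Some Liver-only distal peaks were near misses of the overlap criterion. A fat peak lay within 1000 bp of 214 members (4.79%) and within 5000 bp of 791 (17.7%). The same shares were not computed for other peaks or positions, so these have no background.

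The 20 strongest Liver-only distal peaks ranged from 12.05 down to 8.28 in enrichment, and 5 lay inside a protein-coding gene, 9 outside but within 50 kb of one, and 6 over 50 kb from any. The strongest, at chr7:39202843-39203317, had an enrichment of 12.05 and lay 16.1 kb from Gm6124, a predicted gene. The second, at chr19:55804071-55804641, had 11.3 and lay inside Tcf7l2, a transcription factor of Wnt signalling. Both stood above the third, at 9.68, which lay 280.6 kb from its nearest gene. Litaf, a gene of endosomal trafficking, and Glce, an enzyme of heparan sulfate synthesis, had peaks of the same enrichment, 9.17, at 18.2 kb and 23.1 kb upstream. The peaks inside Nipa1, a magnesium transporter, and nearest to Cpsf2, a subunit of the mRNA cleavage machinery (38.0 kb away), were tied at 8.98. The peak 43.9 kb from Adcy8, an adenylyl cyclase, had 9.06, and those inside Pcnx and Otulin, a deubiquitinase, had 8.65 and 8.58.

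The other 10 of these peaks ranged from 8.47 to 8.28. Nrip1, a corepressor of nuclear receptors and an estrogen target in breast cells, had a peak of 8.46 at 29.5 kb upstream. Slc34a2, a phosphate transporter, had one of the same height at 17.7 kb upstream, and Tmem119 one of 8.47 at 2.71 kb. Akr1d1, the steroid 5β-reductase that also acts in bile acid synthesis, had a peak of 8.31 inside the gene. The peak 3.32 kb from Zfp345, a zinc finger gene, had 8.28. The remaining 5 had no protein-coding gene within 50 kb.

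About as many Liver-only distal peaks lay inside protein-coding genes as outside. In all 2213 (49.6%, 48.1 to 51.1) were within a gene span, 513 (11.5%) within 10 kb outside one, 738 (16.5%) from 10 to 50 kb, 284 (6.36%) from 50 to 100 kb, and 715 (16.0%, 15.0 to 17.1) over 100 kb from every protein-coding gene. The same shares of the shared distal peaks were 52.6%, 16.5%, 16.7%, 7.17% and 7.10% (5.89 to 8.54). The share in gene deserts was therefore higher in the Liver-only set, with intervals over peaks that did not overlap. It was 19.5% among the Liver-only distal peaks below the q threshold. In the mirror class of vWAT-only distal peaks (7117 peaks of the estradiol list with the same q and distance criteria that met no liver, scWAT or BAT peak) it was 14.6%.

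**Figure D3:**
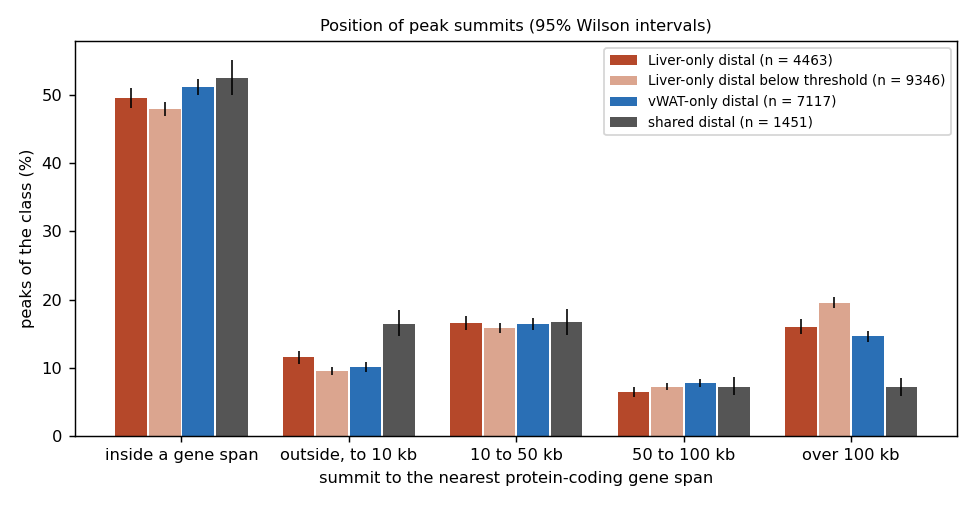
Percent of the peaks of each class (vertical axis, with 95% Wilson intervals over peaks) by distance from the summit to the nearest protein-coding gene span (horizontal axis, 5 classes), for Liver-only distal, below-threshold, vWAT-only distal and shared distal peaks. Over 100 kb the Liver-only distal share was 16.0% and the shared distal share 7.10%.

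Annotated starts inside genes or of non-coding RNAs were under fewer of the Liver-only distal peaks. No starts on chromosome 18, where 153 members lay, were used here, so the members there enter the counts below only as peaks without a start. Within 1 kb of any such start lay 198 of them (4.44%), against 390 (26.9%) of the shared distal peaks. A summit inside one of the 300-bp windows was found for 80 Liver-only distal peaks, a share of 1.79%, against 15.2% of the shared distal peaks and 0.77% of the below-threshold peaks. Of these 80 summits 37 lay in a window of a protein-coding gene and 43 only in windows of non-coding genes. On chromosome X lay 117 of the members (2.62%), while that chromosome holds 4.47% of protein-coding genes. Its share was lower still among the shared distal peaks (1.59%) and the vWAT-only distal peaks (1.69%). Among the below-threshold peaks it was 4.50%, near the share of genes.

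The 8 motifs were searched on both strands of the windows that hold a summit, as exact letters: 89 windows for the Liver-only distal peaks, 248 for the shared distal peaks and 32585 distinct windows in all. The 89 windows came from 80 peaks, since a summit can lie in several overlapping windows, as at Ppt2 and Dpy30. The intervals below count these as separate although they share DNA. The single AGGTCA core was in 19.1% (17 windows, 12.3 to 28.5) of the Liver-only windows, 14.5% of the shared and 16.2% of all. TTGCNNAA (CEBP type) was in 18.0%, 12.1% and 10.9%, AGATAA in 15.7%, 7.26% and 11.2%, TTCNNNGAA in 13.5%, 11.7% and 8.33%, and TGTTTAC (forkhead type) in 6.74%, 2.42% and 3.67%. In this order the Liver-only windows with a match were 16 (11.4 to 27.2), 14 (9.61 to 24.7), 12 (7.88 to 22.1) and 6 (3.13 to 13.9). The intervals of the shared windows were 8.61 to 16.7, 4.64 to 11.2, 8.27 to 16.3 and 1.11 to 5.18. Each overlapped that of the Liver-only windows. The full estrogen response element (GGTCA and TGACC with 3 free bases between) was in 0 of 89, with a Wilson upper bound of 4.14%, and it was in 0.0706% of all windows. The direct repeat (AGGTCA and AGGTCA with 1 free base between) and the HNF1 element (GTTAAT and ATTAAC with 1 free base between) were likewise in 0 of 89 and in 0.0399% and 0.00921% of all windows. The AGGTCA core is part of the direct repeat and can overlap the full element. These windows stand for 1.79% of the Liver-only distal peaks and only for those at annotated starts outside chromosome 18, so they do not describe the sequence of the set.

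A gene was counted as having a Liver-only distal peak when a summit lay in its span or within 25 kb. Over all 21627 protein-coding genes 3850 had one, a share of 17.8%, and 661 genes (3.06%) had at least 2. The same count gave 9.25% for shared distal peaks, 29.3% for the below-threshold peaks, 7.93% for Liver-only peaks at gene ends and 22.9% for vWAT-only distal peaks. Of the members, 1314 had no gene within that distance. A gene could have peaks of both classes: 1341 genes had a Liver-only and a vWAT-only distal peak, which is 34.8% of the former and 27.1% of the latter. Of the 3850 genes 485 (12.6%) had no peak of any fat list. The share of all protein-coding genes without a fat peak was not computed, so this count has no background. Each gene list below is to be read against 17.8%.

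Genes that mark hepatocyte function had Liver-only distal peaks more often than genes at large, by count. Of the 216 genes in 12 hepatocyte lists 83 had one (38.4%, 32.2 to 45.1), with 106 distinct peaks, and 27 genes (12.5%) had at least 2. The remaining 133 had none. The same 216 genes had vWAT-only distal peaks in 51 cases (23.6%, 18.4 to 29.7), beside the background of 22.9%, and shared distal peaks in 23 (10.6%), beside 9.25%. They had below-threshold Liver-only distal peaks in 88 cases (40.7%, 34.4 to 47.4), beside 29.3%. Liver-only peaks at gene ends were at 30 of them (13.9%, 9.91 to 19.1), beside 7.93%. A share above that of all genes was therefore not particular to the Liver-only distal peaks. The median span of the listed genes was 18.6 kb and that of all genes 17.3 kb. Within classes of span length the listed genes also had Liver-only distal peaks more often: 23.3% against 9.07% under 10 kb, 41.8% (33.4 to 50.7) against 17.2% from 10 to 50 kb, and 52.9% against 28.4% from 50 to 200 kb. Of the 83 genes 24 (28.9%) had no peak of any fat list, beside 12.6% of the 3850 genes with a Liver-only distal peak. The share over all protein-coding genes was not computed. These shares are also not matched for length: 485 of the 3850 genes spanned 200 kb or more, and none of the listed genes did. Of the 24 lists 10 had an interval that lay wholly above 17.8%: coagulation, lipoproteins, bile acids, gluconeogenesis, amino acids, conjugation, growth hormone, lipogenesis, circadian and, just so, neuronal genes. No test of these lists was made, and neighbouring genes that share a peak are each counted.

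**Figure D4:**
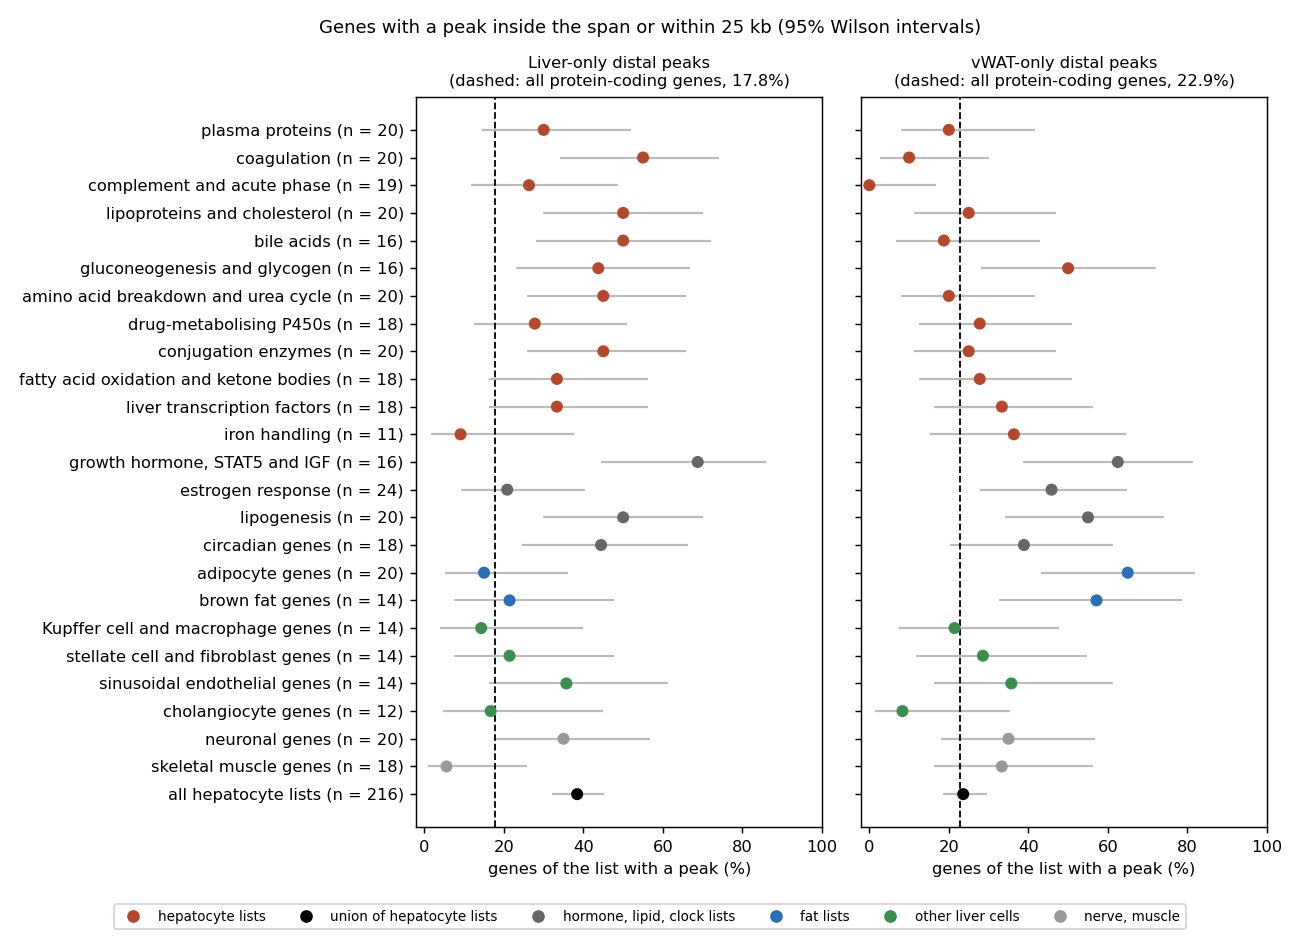
Percent of the genes of each list (rows) with a Liver-only distal peak and with a vWAT-only distal peak in the span or within 25 kb (horizontal axis), with 95% Wilson intervals over genes and dashed lines at the shares of all protein-coding genes, 17.8% and 22.9%. The growth hormone and coagulation lists sit highest for the Liver-only peaks, and the adipocyte list highest for the vWAT-only peaks.

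Among secreted liver proteins, coagulation genes had the most. Of the 20 coagulation genes 11 had a Liver-only distal peak (55%) and 2 a vWAT-only one. F11 and Klkb1, the neighbouring genes of coagulation factor XI and plasma kallikrein, shared a peak of 7.34 inside F11. Fgg and Fga, of the fibrinogen cluster, shared one of 5.49 at 4.38 kb upstream of Fgg. Of the 20 plasma protein genes 6 had a peak (30%). Alb, which encodes albumin, had 2, of 5.62 at 13.3 kb upstream and of 5.64 at 9.15 kb beyond its 3′ end. Trf (transferrin) had one of 5.23, and the neighbours Ahsg and Fetub, which encode fetuins, shared one of 5.09. Of the 19 complement and acute phase genes that could be matched, 5 had a peak (26.3%) and 0 had a vWAT-only one. These included Cfi, the protease that inactivates complement, with 6.54, C8b, a subunit of the membrane attack complex, with 6.03 inside the gene, and Lbp, which binds lipopolysaccharide, with 4.84.

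Genes of lipoprotein and cholesterol metabolism had a Liver-only distal peak in 10 of 20 cases. Sqle, an enzyme of cholesterol synthesis, had a peak of 5.89 at 13.6 kb. Mttp, which loads lipid onto apolipoprotein B, had one of 5.88 inside the gene and a second of 3.92. Scarb1, the receptor for high-density lipoprotein, had one of 5.54 inside the gene, and Apoa1, the main protein of that lipoprotein, one of 5.07 at 21.4 kb upstream. In the bile acid list 8 of 16 had one. Besides Akr1d1 (8.31), Abcb4, the exporter of phospholipid into bile, had a peak of 7.21 inside the gene and one of 4.62 upstream. The peak of 7.09 at 22.1 kb from Amacr, a racemase of bile acid side-chain oxidation, is the one over the start of Gm34315 whose sequence is shown above. Cyp8b1, the hydroxylase needed for cholic acid, had one of 6.10 at 10.5 kb upstream.

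Carbohydrate and amino acid genes followed. In the gluconeogenesis and glycogen list 7 of 16 genes had a Liver-only distal peak (43.8%), and 8 had a vWAT-only one. Among them, Gys2, the liver glycogen synthase, had 5.90 inside the gene, Ppp1r3c, which targets a phosphatase to glycogen, had 5.73 at 18.3 kb, and Pygl, the liver glycogen phosphorylase, had 4.92 inside the gene. In the amino acid list 9 of 20 had one (45%). Tat, which begins tyrosine breakdown, had the strongest, 7.91 at 12.9 kb upstream of its span, and a second of 3.997 at 6.47 kb, and it had no peak of any fat list. Tdo2, which begins tryptophan breakdown, had 5.44 at 20.4 kb upstream, Gls2, the liver glutaminase, had 5.40 inside the gene, and Aass, of lysine breakdown, had 4.75 at 10.97 kb upstream and 4.23 inside.

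Detoxification and fatty acid genes gave a mixed picture. Of the 18 cytochrome P450 pathway genes 5 had a peak (27.8%), as many as had a vWAT-only one: Cyp2d22 with 3 peaks of up to 5.63, Cyp2u1 with 5.21, Cyp3a25 with 4.58, Por, the reductase that serves these enzymes, with 4.39, and Cyp3a11 with 4.36. Of the 20 conjugation genes 9 had one (45%). Sult1e1, the sulfotransferase that inactivates estrogens, had a peak of 6.35 at 9.58 kb upstream, which was the single liver peak at the gene, and no fat list had a peak there. Sult1a1, a phenol sulfotransferase, had 6.01, Gstp1, a glutathione transferase, had 5.54, and Nat8, an acetyltransferase, had 5.52. In the fatty acid oxidation and ketone body list 6 of 18 had one (33.3%). Bdh1, which interconverts ketone bodies, had 7.71 at 9.76 kb upstream and 4.62 further out, with no fat peak. Acot1, an acyl-CoA thioesterase, had 5.42, Ppara, the nuclear receptor that drives fatty acid oxidation, had 3 of up to 5.13, and Hadha, a subunit of the trifunctional protein, had 4.73. Of the 11 iron handling genes that could be matched, 1 had a peak, Tfr2 (transferrin receptor 2), with 4.58.

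Of 18 genes for liver transcription factors 6 had a Liver-only distal peak (33.3%), and 6 had a vWAT-only one. Among them, Onecut2 had 2 of up to 6.09, Nr1i2, the pregnane X receptor, had 5.75 inside the gene, and Hnf4a, the nuclear receptor at the centre of the hepatocyte programme, had 3, of 4.76, 5.31 and 4.29. The growth hormone, STAT5 and IGF list had the highest share of all 24 lists for these peaks, 11 of 16 genes (68.8%, 44.4 to 85.8). The same list had vWAT-only distal peaks at 10 of 16, and its median span of 30.7 kb was longer than that of all genes. Prlr, the prolactin receptor, had 5.90 inside the gene, with its summit in the start window of Gm41268, a non-coding RNA. Socs2, an inhibitor of growth hormone signalling, had 4.89. Igfbp2, an IGF binding protein, had 3 of up to 4.62, and Cux2, a transcription factor known from female mouse liver, had 4.58.

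**Figure D5:**
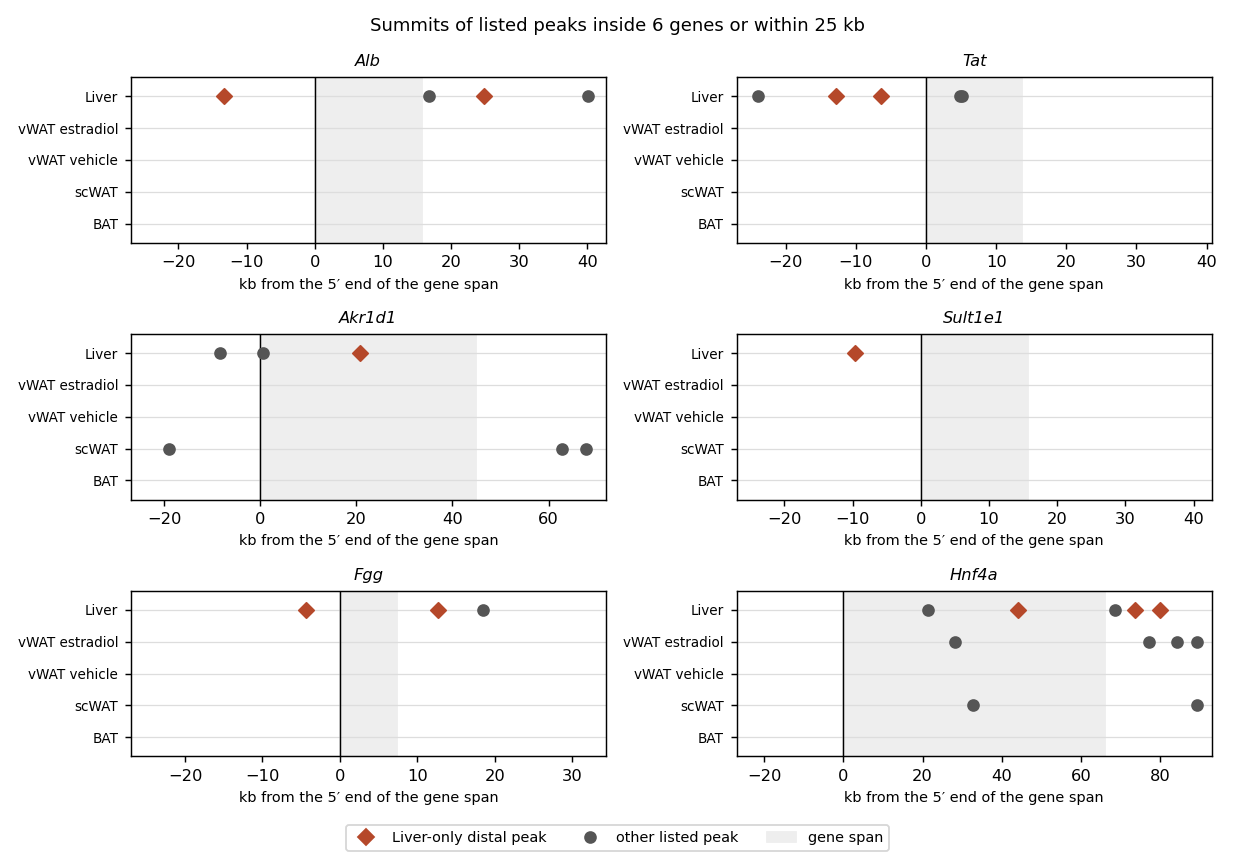
Summits of all listed ERα peaks in or within 25 kb of 6 genes chosen after their values were seen (Alb, Tat, Akr1d1, Sult1e1, Fgg and Hnf4a), by distance from the 5′ end of the gene span (horizontal axes, kb) and by list (rows), with diamonds for Liver-only distal peaks, dots for other listed peaks and a shaded gene span. Sult1e1 has a single peak in any list, and Hnf4a shows 3 Liver-only distal peaks beside peaks of vWAT after estradiol and of scWAT.

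Lists that are not tied to hepatocytes covered a wide range. Of 20 lipogenesis genes 10 had a Liver-only distal peak and 11 a vWAT-only one, led by Pnpla3 (5.93), a lipase of lipid droplets, Fads1 (5.25), a desaturase, Acly (5.05), which makes cytosolic acetyl-CoA, and Acacb (4.58), an acetyl-CoA carboxylase. Of 18 circadian genes 8 had one and 7 a vWAT-only one. Among those with a Liver-only distal peak were the clock repressors Ciart (6.54) and Nfil3 (5.997) and the nuclear receptor gene Rora (4.84). The Nfil3 peak lay 0.407 kb from an annotated start of the gene. Of 24 genes known from the estrogen response of breast cells 5 had a Liver-only distal peak (20.8%) and 11 a vWAT-only one. Those with a Liver-only distal peak were Ctsd, a lysosomal protease, with 6.31 at 11.8 kb upstream, Xbp1 with 4.92, Areg, an EGF receptor ligand, with 4.84, Gata3 with 4.16 and Greb1, a coactivator of ERα, with 4.04. Nrip1 is also in this list, but its peak of 8.46 lay 29.5 kb away, beyond the 25 kb window, and was not counted. Esr1, the gene of ERα, had 6 liver peaks and 0 Liver-only distal peaks. Pgr, the progesterone receptor, had 0 liver peaks and 4 in vWAT after estradiol.

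Fat genes had more vWAT-only than Liver-only distal peaks. Of 20 adipocyte genes 3 had a Liver-only distal peak (15%, 5.24 to 36.04) and 13 had a vWAT-only one (65%), and of 14 brown fat genes the counts were 3 and 8. The 3 adipocyte genes were Pparg, the receptor that drives fat cell formation, with 2 peaks of up to 5.27, Adipor2, an adiponectin receptor also known from liver, with 4.42, and Adipoq, the adiponectin gene, with 4.39 at 1.999 kb upstream. The brown fat genes were Pank1 (5.28), Prdm16 (4.84) and Ppargc1a (4.84), of which Pank1 and Ppargc1a are also known from liver.

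Genes of other liver cells had such peaks in 2 of 14 cases for Kupffer cells and macrophages (Csf1r with 5.89, Ptprc with 4.16), 3 of 14 for stellate cells and fibroblasts (Hand2 with 4.84, Reln with 4.52, Ngfr with 4.16), 5 of 14 for sinusoidal endothelium and 2 of 12 for cholangiocytes (among them Sctr with 4.15). The endothelial genes were led by Lyve1 (5.97) and Stab2 (3 peaks of up to 5.65), both receptors for hyaluronan, with Eng (5.27) and Pecam1 (4.62). In which cell type of the liver a peak arose was not tested. Of 20 neuronal genes, an unrelated list, 7 had a Liver-only distal peak and 7 a vWAT-only one, among them Slc17a7 (6.63), Rbfox3 (5.27) and Nrxn3 (4.96), and their median span was 65.9 kb. Of 18 skeletal muscle genes 1 had one, Atp2a1 (5.64), with 6 for the vWAT-only peaks.

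The genes with the most Liver-only distal peaks were mainly very long ones. Sox5, a transcription factor gene with a span of 954 kb, and Pde4d, a cAMP phosphodiesterase gene of 1302 kb, had 7 each, the highest number at any gene. Mical3 (242.2 kb) and Nrxn3 (1612 kb) had 6 each. Vgll4, a cofactor of TEAD factors in Hippo signalling, Arsb, Stard13, Prkce, Nav2 and Plcb1 had 5 each. Per length, counting the span and 25 kb on each side, the order among these genes differed. Vgll4 (109.4 kb) had 31.4 per Mb, Arsb 22.6 and Mical3 20.5, while Sox5 had 6.97 and Nrxn3 3.61. Genes with fewer peaks could rank higher, such as Tnfsf12 with 4 peaks and 66.8 per Mb.

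Close runs were few. Members within 10 kb of another made up 202 of the 4463 peaks (4.53%), in 97 runs, of which 7 had 3 or more. The largest run held 4 peaks, at Vgll4, with enrichments of 4.15, 5.73, 5.79 and 4.75 over 22.8 kb. A run of 3 upstream of Glce held the peak of 9.17 with others of 4.15 and 5.42, and the remaining runs of 3 lay nearest to Adra1a, Mcc, Slc6a6, Slc34a2, and Polr2a with Tnfsf12.

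Of 1005 miRNA hairpins 46 had a Liver-only distal summit within 10 kb, a share of 4.58%. Among them were Mir802, known from liver and glucose metabolism, with a peak of 5.11 at 1.70 kb, Mir107, which lies in Pank1, with 5.28 at 0.957 kb, Mir148b with 4.83 at 2.89 kb, and Mir7055 with 6.63 at 0.657 kb. These 4 were picked after their values were seen. Neighbouring hairpins that share a peak are each counted, such as Mir291b, Mir292, Mir293, Mir294 and Mir295 with a peak of 4.65 near Nlrp12.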

How the data were processed

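ERα ChIP-seq peak lists of liver, visceral, subcutaneous and brown fat were used as deposited; the antibody was sc543, per the labels' protocols. The submitters' processing notes name BWA 0.7.12, HOMER and mm10, and the peak caller and any pooling of libraries are not stated in them or in the labels. For each peak the authors' lists hold a score, a fold enrichment (ratio), −log10 of the p-value and q-value, and a summit offset. The score and the p-value were not used. H3K27ac and RNA-seq samples were not used here.

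The peaks were selected on their deposited −log10 q (at least 2), overlap (1 bp) and distance to gene ends (1 kb). Gene spans came from the RefSeq table of GRCm38.p6 (21627 protein-coding genes), and 418 of 420 listed genes matched (not C5 and Hfe2). The start windows covered 17273 genes. Motifs had been planned on bases around every summit, which needs a genome, so they were searched in start windows only. Named are the 20 strongest peaks, the 10 genes with the most peaks, up to 4 genes of each list by strongest peak, 3 peaks on each side of the q threshold, and Esr1, Greb1 and Pgr. Where the text names further list genes, miRNAs, runs or windows, they were chosen after their values were seen. Some genes that this rule names are not reported here. Members and lists were chosen with earlier results of these data known. The alternatives tried were the q minimum, the overlap margin, the distances and the gene window. Counts and intervals were computed with Python 3.11.15, numpy 2.4.6, pandas 2.3.3 and scipy 1.17.1, figures with matplotlib 3.10.9, and the overlap and distance code was tested on simulated peaks.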

Additional observations from a re-analysis of the deposited data

How the results depend on the processing

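The number of Liver-only distal peaks (4463) was 1948 at a −log10 q of at least 3 and 13809 with no minimum, and their median enrichment (4.61) was 5.24 and 3.33. It was 4249 when a fat peak within 1 kb counted as overlap, 4568 when only fat peaks with a −log10 q of at least 2 counted, 3853 with 5 kb to gene ends and 4511 without the vehicle list. The share inside a gene span (49.6%) was 47.8% with 5 kb to gene ends. The share of all protein-coding genes with such a peak (17.8%) was 8.54% at a −log10 q of 3, 39.6% with no minimum, 16.7% with the 1 kb overlap margin, 18.3% against fat peaks of q 2 or more, 12.9% with 5 kb to gene ends, and 9.97% and 38.9% with gene windows of 5 kb and 100 kb. In the same order the hepatocyte share (38.4%) was 21.8% at 3, 63.4% with no minimum, 31.0% with 5 kb to gene ends, and 17.6% and 62.0% with the 2 windows, and it stood above the share of all genes in each of these. The adipocyte share (15%) was 5% at 3, 35% with no minimum, 10% with 5 kb to gene ends, and 15% and 40% with the 2 windows, in both of which it stood above the share of all genes. It stood below that share in the other 3. An alternative chosen after seeing the data, which also kept summits over 1 kb from every annotated start, gave 4265 peaks, 16.8% of all genes and 36.1% of the hepatocyte genes. Leaving out single libraries could not be run, since each group has 1 list. No paired analysis was possible because replicate numbers in the labels have no values of their own in these lists. The depth of the lists is unknown, so absence from a fat list is limited by what each list could detect.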
